A study of Mus musculus with 6 samples.

Results

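Liver holds glucose as glycogen after a meal and releases glucose between meals, both from that glycogen and from new synthesis. In textbook terms, Gys2 (liver glycogen synthase) and Gbe1 (the branching enzyme) build glycogen, Pygl (liver glycogen phosphorylase) breaks it down, and Ppp1r3b and Ppp1r3c encode subunits that bring protein phosphatase 1 to glycogen. Pck1 encodes cytosolic phosphoenolpyruvate carboxykinase and Fbp1 encodes fructose-1,6-bisphosphatase, both enzymes of gluconeogenesis, G6pc encodes the catalytic subunit of glucose-6-phosphatase, which frees glucose, and Slc2a2 encodes the glucose transporter GLUT2.

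These 9 genes, 5 of glycogen and 4 of gluconeogenesis and glucose transport, were examined among 19938 measured genes. They were chosen by gene symbol, and 9 probe sets carried only a member's symbol in the platform annotation, 1 for each gene. The mice were CyclinB1-GFP transgenic, aged 3.5 weeks and weaned, and all of them carried the reporter, a green fluorescent protein named after cyclin B1. Livers of 3 mice were perfused and dissociated, and flow sorting gave 3 GFP-positive samples, which the labels call replicating, and 3 GFP-negative samples, which the labels call quiescent. Each sample's RNA was amplified from 10 ng and hybridised to 1 Affymetrix array, so the number of arrays limits the precision. Numbers 1, 2 and 3 below are the labels' replicate numbers. Levels are log2 of the deposited intensity, differences are GFP-positive minus GFP-negative, and the level of one gene's probe set cannot be set against another's.

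The sort was visible in division genes, of which 7 of 8 listed rose in GFP-positive cells, with a median log2 difference of 4.21 over the 8. All 9 hepatocyte markers, Alb and Ttr among them, averaged above the array medians (log2 4.60 to 4.74). Below the medians were 7 of 9 Kupffer cell, 4 of 9 stellate cell, 3 of 4 cholangiocyte, 4 of 5 lymphoid, 1 of 8 endothelial and 1 of 5 erythroid markers. Most endothelial and erythroid markers thus also lay above them. As levels of different probe sets cannot be set against each other, these counts do not measure the share of each cell type. In bulk RNA such as this, fewer cells of a type and less RNA per cell cannot be told apart. The level of Xist was 9.80 on array 2 of the GFP-positive and 9.03 on array 2 of the GFP-negative samples, and between 3.73 and 4.04 on the other 4 arrays. The Y-linked gene Eif2s3y went the other way, at 2.24 and 1.98 on these arrays and between 6.78 and 7.31 on the other 4. Number 2 therefore had a female pattern and numbers 1 and 3 a male pattern in both fractions, so each fraction mixed the sexes. What is particular to number 2 cannot be told apart from sex.

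None of the 9 genes passed the test. Over all genes 333 of 19938 (1.67%) had an adjusted p below 0.05 (limma with Benjamini-Hochberg adjustment), 310 of them (1.55% of all genes) higher and 23 (0.115%) lower in GFP-positive cells. The adjusted p of the members ran from 0.18 (Ppp1r3c) to 0.99 (Gbe1). At an unadjusted p below 0.05 there were 3 members (Ppp1r3c, Slc2a2 and Pck1), all lower, against 756 of all genes lower (3.79%) and 1755 in either direction (8.80%). The measured difference was below 0 in 8 of the 9, with a median of -0.33, against 11110 of all genes (55.7%) with a median of -0.03. The exception was Gbe1 at 0.01, which became -0.02 when each array was centred on its median. In 3 members (Ppp1r3c, Gys2 and Slc2a2) all GFP-positive values lay below all GFP-negative values, as they did in 6.98% of all genes. All 54 member values lay above the median of their array, by at least 1.19.

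**Figure D1:**
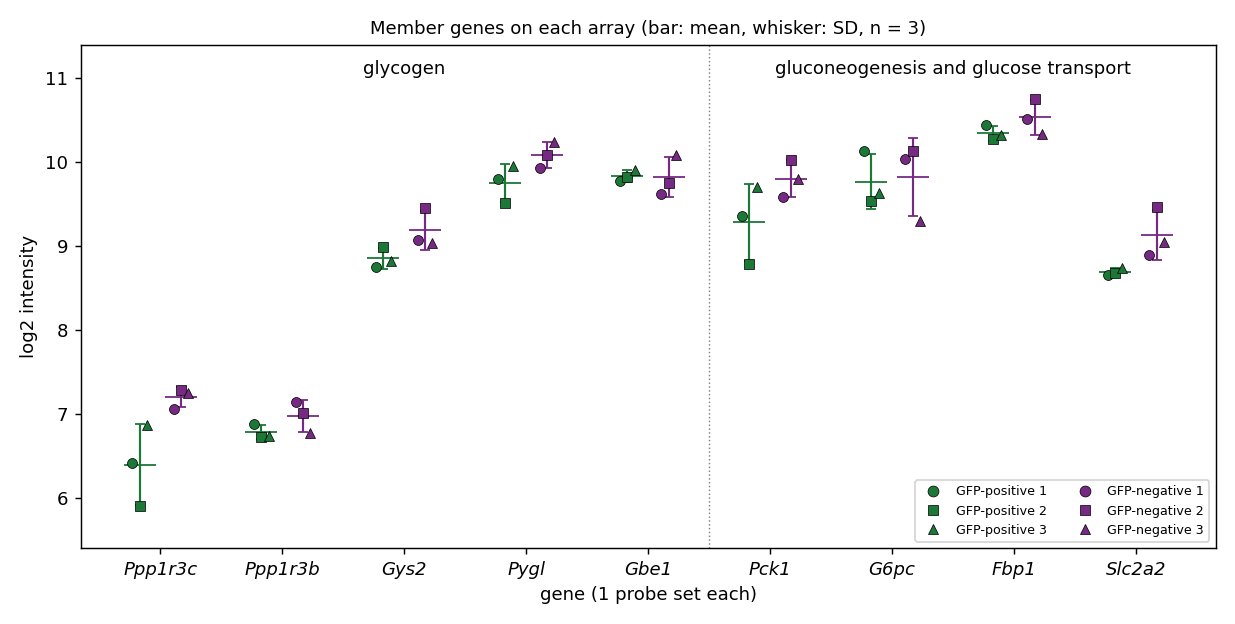
Log2 intensity of each member gene on each array, GFP-positive (green) left of GFP-negative (purple), with marker shapes for replicate numbers, bars for means and whiskers for SD (n = 3). The 2 fractions do not overlap for Ppp1r3c, Gys2 and Slc2a2 and overlap for the other 6 genes; heights may be compared only within a gene.

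Ppp1r3c (probe set 10467206) had the largest measured difference of the 9. Its level was 6.41, 5.91 and 6.87 in GFP-positive 1, 2 and 3, against 7.06, 7.29 and 7.24 in GFP-negative 1, 2 and 3. The GFP-positive values were lower and more spread out, with GFP-positive 2 the lowest, and the fractions did not overlap. The means were 6.39 ± 0.48 in the GFP-positive fraction and 7.20 ± 0.12 in the GFP-negative fraction (SD, n = 3 each), a log2 difference of -0.80 ± 0.22 (SE, 95% interval -1.31 to -0.30), or 1.75-fold lower, with a limma adjusted p of 0.18. Without GFP-positive 3 the difference was -1.04 and the limma adjusted p was 0.044, and without any other single array the limma adjusted p lay between 0.32 and 0.37. Without both arrays of number 2 the difference was -0.52.

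Ppp1r3b (probe set 10571321), the other glycogen-targeting subunit among the members, differed less. It stood at 6.88, 6.73 and 6.74 in GFP-positive cells, against 7.14, 7.01 and 6.77 in GFP-negative cells. The fractions overlapped through GFP-negative 3, and the difference was -0.19 ± 0.15 (SE, 95% interval -0.52 to 0.14, limma adjusted p = 0.84). Each of the 3 numbers gave a lower value in GFP-positive cells, by -0.26, -0.28 and -0.03.

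The synthase and the phosphorylase had equal measured differences. Gys2 (probe set 10549079) stood at 8.75, 8.99 and 8.83 in GFP-positive cells, against 9.07, 9.45 and 9.04 in GFP-negative cells. Every GFP-positive value lay below every GFP-negative value, but the gap between GFP-positive 2 and GFP-negative 3 was small. The difference was -0.33 ± 0.16 (SE, 95% interval -0.69 to 0.03), or 1.26-fold lower, with a limma adjusted p of 0.61. Pygl (probe set 10400844) stood at 9.80, 9.51 and 9.96 in GFP-positive cells, against 9.93, 10.08 and 10.24 in GFP-negative cells. GFP-positive 3 lay just above GFP-negative 1, so the fractions overlapped, and the difference was also -0.33 ± 0.16 (SE, 95% interval -0.70 to 0.03, limma adjusted p = 0.62). Within arrays, Gys2 minus Pygl differed between the fractions by -0.19, 0.11 and 0.08 in numbers 1, 2 and 3, without a common direction.

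Gbe1 (probe set 10436500), the branching enzyme gene, had the smallest measured difference. It stood at 9.77, 9.82 and 9.91 in GFP-positive cells, against 9.62, 9.76 and 10.08 in GFP-negative cells. The GFP-positive values all lay inside the GFP-negative range, and the 95% interval of the difference ran from -0.34 to 0.36 around 0.01 ± 0.16 (SE, limma adjusted p = 0.99).

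Among the gluconeogenic genes the largest measured difference was that of Pck1 (probe set 10479047), whose enzyme makes phosphoenolpyruvate from oxaloacetate. It stood at 9.36, 8.79 and 9.70 in GFP-positive cells, against 9.59, 10.03 and 9.80 in GFP-negative cells. GFP-positive 2 was the lowest value and GFP-negative 2 the highest, and GFP-positive 3 lay above GFP-negative 1. The difference was -0.52 ± 0.23 (SE, 95% interval -1.04 to -0.01, limma adjusted p = 0.56). It was -0.23, -1.24 and -0.09 in numbers 1, 2 and 3, so without number 2 it came to -0.16.

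Fbp1 (probe set 10410007), whose enzyme makes fructose-6-phosphate, stood at 10.44, 10.27 and 10.32 in GFP-positive cells, against 10.51, 10.75 and 10.34 in GFP-negative cells. The fractions overlapped, with GFP-negative 2 highest, and the difference was -0.19 ± 0.15 (SE, 95% interval -0.53 to 0.15, limma adjusted p = 0.85). It was -0.07, -0.48 and -0.02 in numbers 1, 2 and 3, or -0.04 without number 2, and -0.08 without GFP-negative 2 alone. G6pc (probe set 10381387), which acts last, stood at 10.14, 9.54 and 9.63 in GFP-positive cells, against 10.04, 10.14 and 9.29 in GFP-negative cells. The lowest value of all 6 was GFP-negative 3, and both fractions covered much of the same range. The difference was -0.06 ± 0.25 (SE, 95% interval -0.61 to 0.50, limma adjusted p = 0.98), and it was 0.10, -0.60 and 0.33 in numbers 1, 2 and 3, or 0.21 without number 2.

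Slc2a2 (probe set 10491171), the transporter gene, had closely grouped GFP-positive values of 8.65, 8.68 and 8.74, against 8.89, 9.47 and 9.05 in GFP-negative cells. The fractions did not overlap, and the spread lay mostly in GFP-negative 2. The means were 8.69 ± 0.05 in GFP-positive cells and 9.14 ± 0.30 in GFP-negative cells (SD, n = 3 each), a difference of -0.45 ± 0.17 (SE, 95% interval -0.83 to -0.07), or 1.36-fold lower, with a limma adjusted p of 0.44. Numbers 1, 2 and 3 gave -0.24, -0.79 and -0.30.

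**Figure D2:**
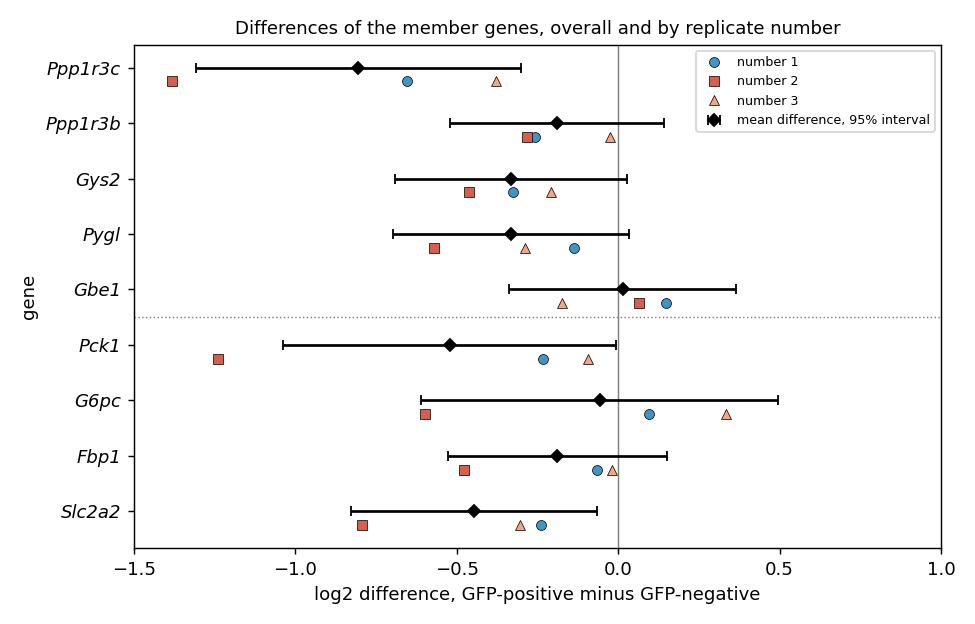
Log2 difference, GFP-positive minus GFP-negative, of each member gene: black diamonds with 95% intervals from limma, coloured symbols for each replicate number. Number 2 gave the most negative difference in 8 of the 9 genes, with Gbe1 the exception, and intervals that do not reach 0 (Ppp1r3c, Pck1 and Slc2a2) are not adjusted for multiple testing.

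Number 2 carried the largest differences. It gave the most negative difference of the 3 numbers in 8 of the 9 members, whereas it did so in 34.0% of all genes. The median over the 9 was -0.23, -0.57 and -0.17 in numbers 1, 2 and 3, against -0.01, 0.02 and -0.06 over all genes. GFP-positive 2 was the lowest GFP-positive array in 6 members and GFP-negative 2 the highest GFP-negative array in 6, so both arrays contributed. Of the 9 members, 7 had a lower GFP-positive value in every number, as did 15.3% of all genes; Gbe1 and G6pc were the others.

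The mean log2 level of the 5 glycogen genes was 8.32, 8.19 and 8.46 on GFP-positive arrays 1, 2 and 3, against 8.57, 8.72 and 8.68 on GFP-negative arrays 1, 2 and 3. These means did not overlap between the fractions, and they differed by -0.24, -0.53 and -0.21 in numbers 1, 2 and 3. The mean of the 9 hepatocyte markers did not overlap either, at 11.46 to 11.63 on GFP-positive arrays, against 11.64 to 11.71 on GFP-negative arrays. The same held for the other glycogen enzyme, pericentral, endothelial and stellate cell lists, all lower in GFP-positive cells. The periportal, Kupffer cell and remaining glucose and glycogen lists overlapped. Non-overlap was thus not particular to the glycogen genes. The mean of the 4 gluconeogenic genes was 9.65, 9.32 and 9.60 on GFP-positive arrays, against 9.76, 10.10 and 9.62 on GFP-negative arrays. These means overlapped, and they differed by -0.11, -0.78 and -0.02 in numbers 1, 2 and 3. Averaged over the numbers, the glycogen genes differed by -0.33 and the gluconeogenic genes by -0.30, so glycogen minus gluconeogenic came to -0.03, well within the pooled SD of 0.17 between arrays of 1 fraction. It was -0.13, 0.25 and -0.19 in numbers 1, 2 and 3, and -0.16 without number 2, where the glycogen genes differed by -0.23 and the gluconeogenic genes by -0.07. The gluconeogenic group includes the transporter gene Slc2a2. Without number 2 Slc2a2 differed by -0.27, against -0.16, 0.21 and -0.04 for Pck1, G6pc and Fbp1. No test was made of the group means, because the genes were chosen with earlier results known.

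**Figure D3:**
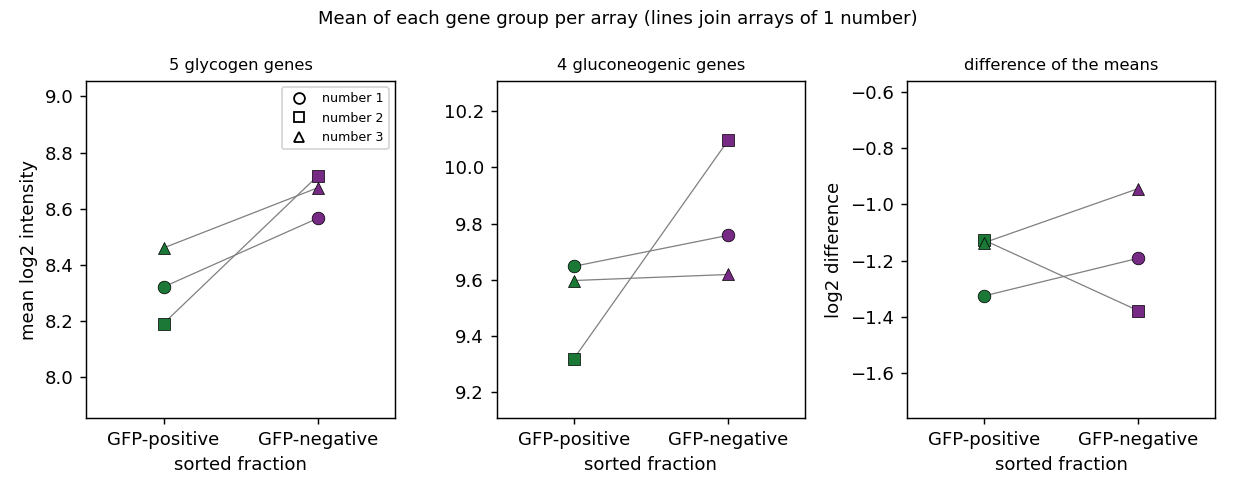
Mean log2 intensity per array of the 5 glycogen genes (left) and the 4 gluconeogenic genes (middle), and the first minus the second (right), with GFP-positive left of GFP-negative and lines joining arrays of 1 replicate number. The glycogen means lie lower in GFP-positive cells in each number, the gluconeogenic means differ mainly in number 2, and the difference of the means has no common direction.

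The 9 profiles over the 6 arrays were compared by the root-mean-square distance between log2 profiles after each was centred on its own mean. This distance is small between any profiles that vary little. Ppp1r3c and Pck1 were each other's nearest member (distance 0.16), as were Gys2 and Slc2a2 (0.12) and Ppp1r3b and Fbp1 (0.11). Each of these pairs joined a glycogen gene to one of gluconeogenesis or glucose transport. The widest distance was between Ppp1r3c and G6pc (0.56). Among 18724 genes with standard names, the 3 nearest to Ppp1r3c were Palmd (0.11), Rgs16 (0.13) and Abca8b (0.14), with differences of -0.87, -0.87 and -0.75. The 3 nearest to Pck1 were Ctse (0.07), Arf3 (0.10) and Slc25a23 (0.10). Those nearest to Gys2 were Ccpg1 (0.03), Car5b (0.05) and Cxxc5 (0.05), and those nearest to G6pc were Cdk10 (0.07), Jkamp (0.08) and Nit1 (0.08). Each of these genes lay nearer to its member than any other member did. As the nearest of 18724 genes were set against the nearest of the 9 members, this does not rank the member pairs among all genes. No such rank was computed, and the nearest genes are not given for Ppp1r3b or Fbp1. With 6 arrays such distances describe these samples only.

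Because Ppp1r3c and Pck1 were each other's nearest member while G6pc lay farthest from both, the 250 bases before the annotated start of these 3 genes are shown (RefSeq, GRCm38.p6, 5′ to 3′ on the gene's strand), with motif matches in capitals. The windows lie at chr19:36736605-36736854 (minus strand), chr2:173152823-173153072 (plus strand) and chr11:101367466-101367715 (plus strand).
Ppp1r3c: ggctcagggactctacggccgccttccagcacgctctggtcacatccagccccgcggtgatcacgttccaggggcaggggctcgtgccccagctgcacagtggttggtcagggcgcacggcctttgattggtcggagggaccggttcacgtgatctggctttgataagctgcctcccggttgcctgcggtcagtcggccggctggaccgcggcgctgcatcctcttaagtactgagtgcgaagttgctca
Pck1: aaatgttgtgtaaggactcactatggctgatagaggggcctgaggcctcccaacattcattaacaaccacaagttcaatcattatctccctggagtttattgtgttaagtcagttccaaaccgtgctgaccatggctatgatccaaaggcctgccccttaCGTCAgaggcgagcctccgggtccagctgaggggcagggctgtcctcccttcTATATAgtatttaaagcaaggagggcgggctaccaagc
G6pc: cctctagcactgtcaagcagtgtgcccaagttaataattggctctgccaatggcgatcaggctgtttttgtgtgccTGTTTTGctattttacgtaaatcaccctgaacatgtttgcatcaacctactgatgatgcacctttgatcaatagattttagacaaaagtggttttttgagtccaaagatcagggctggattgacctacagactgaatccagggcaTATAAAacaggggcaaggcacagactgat
Capitals mark the cAMP response half-site, TGACG on either strand, the TATA box, which was searched for as TATAAA and also in the form TATATA on the gene's strand, and the insulin response core, TGTTTTG on either strand, and no match overlaps another. Pck1 holds the half-site (as CGTCA) starting 90 bases and a TATA box starting 38 bases before the start, and G6pc holds the insulin response core starting 174 and a TATA box starting 29 bases before it. None of these motifs occurs in the Ppp1r3c window. Of 32851 promoter windows of this length, 17.8% hold the half-site, 11.5% the TATA box and 5.56% the insulin response core. Windows were found for 7 of the 9 members (not Ppp1r3b and Gys2), and among these 7 the half-site occurs in Pck1 and Pygl, and the TATA box in Pck1 and G6pc. A match is a string of letters and was not tested as a binding site.

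The rest of the pathway was read from 5 lists with 74 measured genes, of which none passed the test (1.67% of all genes did), and 9 had an unadjusted limma p below 0.05 (8.80% of all genes did), 8 of them lower (3.79% of all genes). The median difference over the 74 was -0.09. In 8 of the 74 the fractions did not overlap, 6 of them lower, against 2751 of 19938 genes, 1392 of them (6.98% of all genes) lower. Among 10 other glycogen enzyme genes the median was -0.11, and the largest differences were those of Stbd1, which tethers glycogen to membranes (-0.66, limma adjusted p = 0.37), and the phosphoglucomutase gene Pgm1 (-0.50, limma adjusted p = 0.48). Stbd1 stood at 6.17 ± 0.45 in GFP-positive cells and 6.83 ± 0.24 in GFP-negative cells (SD, n = 3 each) without overlap, and its difference was -0.40 without GFP-positive 2.

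Among 17 other glycogen regulator genes the median was -0.01, and the largest differences were those of Epm2a, the glycogen phosphatase laforin (-0.83, limma adjusted p = 0.33), and Ppp1r3g, a further glycogen-targeting subunit gene (-0.74, limma adjusted p = 0.48). Epm2a averaged 4.15 ± 0.11 in GFP-positive cells and 4.98 ± 0.64 in GFP-negative cells (SD, n = 3 each), with the GFP-positive mean below the array medians. Without GFP-negative 1, Epm2a passed (-1.17, limma adjusted p = 0.023), and without GFP-negative 2 its difference was -0.53. Phka2, the liver alpha subunit of phosphorylase kinase, which activates the phosphorylase, was chosen after its values were seen because its measured difference was the highest of the 74. It averaged 7.64 ± 0.17 in GFP-positive cells and 6.91 ± 0.53 in GFP-negative cells (SD, n = 3 each) without overlap, a difference of 0.73 (limma adjusted p = 0.33). The difference was 0.87, 0.06 and 1.27 in numbers 1, 2 and 3, and 0.46 without GFP-negative 3.

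Among 18 other gluconeogenic enzyme and carrier genes the median was -0.07. Gpd1, glycerol-3-phosphate dehydrogenase, differed by -0.70 (limma adjusted p = 0.59), with 0.07 in number 3 and -1.53 in number 2. Slc37a4, which carries glucose-6-phosphate to the enzyme that G6pc encodes, averaged 6.91 ± 0.08 in GFP-positive cells and 7.51 ± 0.35 in GFP-negative cells (SD, n = 3 each), a difference of -0.59 without overlap (limma adjusted p = 0.26). All 7 genes of hepatic glucose use were below 0 (median -0.26), as were 55.7% of all genes, with the largest differences in the pyruvate dehydrogenase kinase genes Pdk4 (-0.41, limma adjusted p = 0.65) and Pdk2 (-0.31, limma adjusted p = 0.68). The mean of this list differed by -0.02, -0.62 and 0.01 in numbers 1, 2 and 3, and without number 2 the differences of Gckr, Pfkl, Pklr and Khk were above 0 (0.13, 0.04, 0.13 and 0.14). Without GFP-positive 2 the difference of Pdk4 was -0.17. Among 22 genes listed as regulators the median was -0.14. The largest differences were those of Nr0b2, a repressor of nuclear receptors (-0.82, limma adjusted p = 0.55), and Igfbp1 (-0.67, limma adjusted p = 0.60). Igfbp1 is a target of insulin signalling rather than a regulator, though it was on this list. Without GFP-positive 2 the difference of Nr0b2 was -0.36, without GFP-negative 2 that of Igfbp1 was -0.30, and the mean of the list differed by -0.12, -0.38 and 0.08 in numbers 1, 2 and 3.

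**Figure D4:**
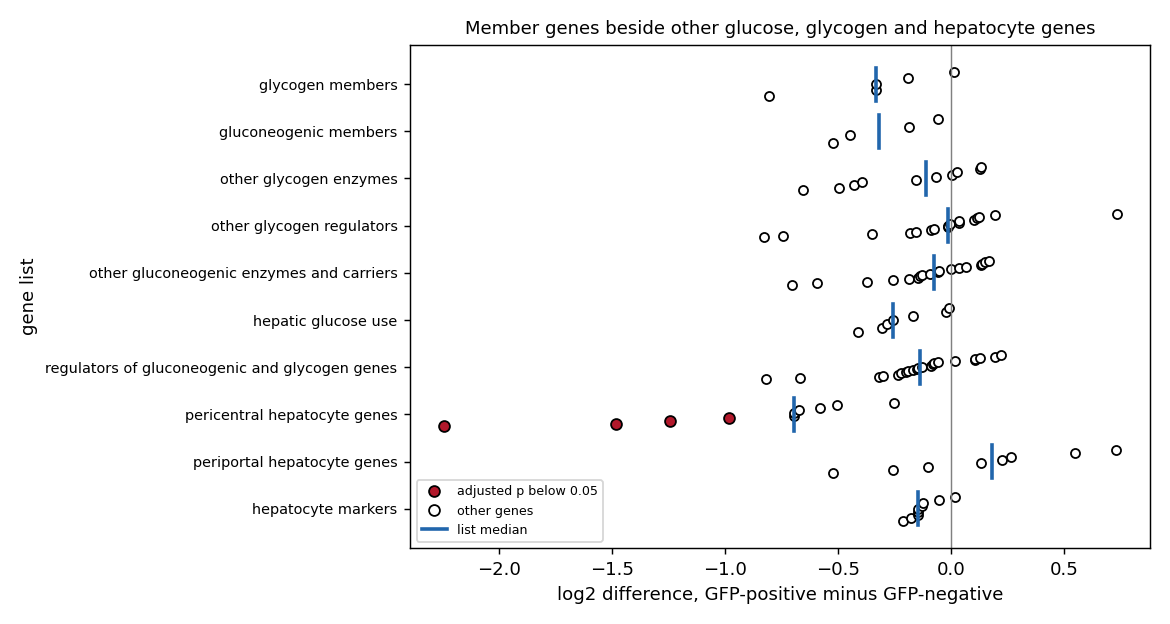
Log2 difference, GFP-positive minus GFP-negative, of every measured gene in the member lists, 5 further lists of glucose and glycogen genes, and 3 lists of hepatocyte genes; red points passed (adjusted p below 0.05) and blue bars are list medians. Only the pericentral list, with 4 of 10, holds genes that passed among the lists drawn.

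Glucose metabolism is zonated in liver, with gluconeogenesis stronger around the portal vein, and genes of the central vein zone moved in these samples. Of 10 pericentral genes, a list drawn up with earlier results of these data known, 4 passed, all lower, as did 0.115% of all genes. They were Slc1a2 (-2.24), Glul (-1.48), Oat (-1.24) and Cyp7a1 (-0.98), with limma adjusted p-values of 0.00073, 0.0055, 0.0019 and 0.017. The median over the 10 was -0.69, and all 10 were below 0 (55.7% of all genes). In 9 of the 10 all GFP-positive values lay below all GFP-negative values (6.98% of all genes). At an unadjusted limma p below 0.05 there were 9, all lower (3.79% of all genes). Cyp7a1 did not pass without GFP-positive 1 (limma adjusted p = 0.080), without GFP-positive 2 (limma adjusted p = 0.068) or without both arrays of number 2 (-0.78, limma adjusted p = 0.098). The mean of this list differed by -0.77, -1.17 and -0.86 in numbers 1, 2 and 3. None of 8 periportal genes, which include Pck1, passed (median 0.18), and their mean differed by 0.26, -0.40 and 0.52, with the largest difference in Aldh1b1 (0.73, limma adjusted p = 0.58). The 9 hepatocyte markers had a median of -0.14 and none passed, with the largest difference in Fga (-0.21, limma adjusted p = 0.82). Of these markers, 8 of 9 were below 0, and in 5 of 9 all GFP-positive values lay below all GFP-negative values, against 3 of the 9 members and 6.98% of all genes. Their mean differed by -0.12, -0.25 and -0.01 in the 3 numbers. The part of zonation, of sex or of hepatocyte content in the differences of the members was not tested.

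Among markers of other cell types, the Kupffer cell gene Clec4f fell (-0.68, limma adjusted p = 0.032), but not without any 1 array (limma adjusted p = 0.070 to 0.15) or with the replicate number as a block (limma adjusted p = 0.077). Car2, carbonic anhydrase 2, listed as erythroid, rose (0.95, limma adjusted p = 0.016), but not without GFP-positive 1 (0.085), GFP-positive 3 (0.058), GFP-negative 1 (0.085) or GFP-negative 3 (0.073), given as limma adjusted p. No other of the 40 markers passed, and the largest differences in the endothelial, stellate, cholangiocyte and lymphoid lists were those of Cdh5 (-0.71), Dcn (-0.86), Krt19 (-0.12) and Ptprc (0.15). The mean of the 9 Kupffer cell markers lay between 4.19 and 4.31 on GFP-positive arrays, against 4.23 to 4.57 on GFP-negative arrays, that of the 8 endothelial markers between 4.90 and 4.98, against 5.12 to 5.33, and that of the 9 stellate cell markers between 4.76 and 4.99, against 5.15 to 5.17. The means of the cholangiocyte, erythroid and lymphoid lists overlapped. They lay between 4.40 and 4.53, 5.39 and 5.67, and 3.76 and 3.81 on GFP-positive arrays. On GFP-negative arrays they lay between 4.40 and 4.56, 5.59 and 5.66, and 3.64 and 3.94. The part of these cell types in the differences of the members was not tested.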

How the data were processed

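The authors deposited 1 intensity per probe set and array, made with RMA per the submitters' processing notes (background correction, normalization between arrays, summary of probes); the sources used here give neither its version nor its settings. The values, 1.62 to 15836 with array medians of 24.3 to 26.7, are linear, so log2 of the deposited intensity was taken, with no further normalization and no filter on low values. Of 35512 probe sets, 21789 have 1 gene symbol in the platform annotation, 1621 several and 12102 none. Of the 21789, 21698 took their symbol through Entrez identifiers, whether or not the name changed. Each of 19938 genes took its probe set with the highest mean.

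GFP-positive was compared with GFP-negative in limma 3.58.1 (R 4.3.3), two-sided, with the group as the single term (4 residual and 5.44 prior degrees of freedom). This main fit did not pair the 2 fractions of a mouse, which the replicate block below does. P-values were adjusted by Benjamini and Hochberg across all genes at 0.05. The fit was also run on simulated unpaired data. Its condition on power used a shift larger than any member's difference, so it does not speak for differences as small as theirs. The members and lists were chosen with earlier results of these data known. Named were the 9 members, in each further list the genes that passed, or else the 2 (marker and zone lists: the 1) with the largest absolute difference, and the 3 genes nearest in profile to each of 4 members; the named genes of the division list are given as a count. The design text says that the 3 livers each gave both fractions, and numbers were taken to mark mice, since Xist was high in number 2 of both fractions. Deviations of same-numbered arrays from their group means had correlations of 0.20, 0.06 and -0.05 in numbers 1, 2 and 3, and nothing tells numbers 1 and 3 apart. Python 3.11.15 was used for tables (pandas 2.3.3 with numpy 2.4.6) and for plots (matplotlib 3.10.9).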

Additional observations from a re-analysis of the deposited data

How the results depend on the processing

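No member passed with quantile normalization, median centring, the dimmest genes left out (13292 stayed), the mean of all probe sets, an intensity trend, array weights, the replicate block or without both arrays of number 2, and the lowest adjusted p among the members under these 8 alternatives ran from 0.089 (quantile normalization) to 0.43 (without number 2). Without single arrays, 0 to 1 members passed (Ppp1r3c, without GFP-positive 3). With the replicate number as a block (2 residual degrees of freedom) 355 genes passed, 28 of them lower. Ppp1r3c then had a limma adjusted p of 0.14, and the pairing changed no call of a member. Among named genes outside the members, the block lowered the limma adjusted p of some that still did not pass. These included Aldh1b1 (0.12), Nr0b2 (0.13), Igfbp1 (0.14), Epm2a (0.14), Stbd1 (0.15) and Ppp1r3g (0.17). The block raised the limma adjusted p of Clec4f (0.077), Car2 (0.033) and Cyp7a1 (0.032), among others. The count of lower genes over the whole table, 23, was 38 with quantile normalization, 13 with median centring, 53 with array weights, 9 without both arrays of number 2 and 6 to 29 without single arrays. The measured difference of Gbe1 changed sign with median centring (-0.016) and without both arrays of number 2 (-0.012), and ran from -0.086 to 0.15 without single arrays. That of G6pc became 0.21 without both arrays of number 2 and ran from -0.32 to 0.10 without single arrays. Glycogen minus gluconeogenic ran from -0.13 to 0.09 without single arrays. The causes were not tested. With 3 arrays per fraction, the 95% interval of the difference held 0 in 6 of the 9 members.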

Other observations

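The partners of glucose-6-phosphate release had unlike values. The carrier gene Slc37a4 minus the enzyme gene G6pc, taken within each array, differed between the fractions by -0.46, -0.43 and -0.72 in numbers 1, 2 and 3, so G6pc was higher relative to Slc37a4 in GFP-positive cells in each number. The values of the ratio were -3.27, -2.67 and -2.63 on GFP-positive arrays, against -2.81, -2.24 and -1.91 on GFP-negative arrays, and these overlapped. Pck1 minus G6pc differed by -0.33, -0.64 and -0.43 in the 3 numbers, with values of -0.78, -0.75 and 0.08 on GFP-positive arrays, against -0.45, -0.11 and 0.50 on GFP-negative arrays. Ppp1r3c minus Ppp1r3b differed by -0.40, -1.10 and -0.35, with values of -0.47, -0.82 and 0.13 on GFP-positive arrays, against -0.08, 0.28 and 0.48 on GFP-negative arrays. These pairs were chosen after the values were seen, no test was made, and only the change of such a ratio between arrays can be read, not its level.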
